A study of Mus musculus with 6 samples.

Results

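The melanocyte pigment genes Tyr, Tyrp1, Dct, Mlana, Slc45a2, Oca2 and Mitf were followed in 6 mouse RNA libraries. They are 7 of the 23726 gene models in the deposited count table, were taken by name, and all 7 were found there. The study follows skin carcinogenesis by topical DMBA, which mutates DNA, and TPA, which makes keratinocytes divide. It has 1 biopsy of healthy skin, 2 distinct papillomas (benign growths that followed DMBA/TPA, called papilloma 1 and papilloma 2), 1 tumour biopsy that followed the same treatment, and cells from DMBA/TPA tumours named mSCC-38 (highly tumorigenic) and mSCC-20 (non-tumorigenic), with 1 library each. Papilloma is thus the only group with more than 1 library. The sources used here give no strain, age or coat colour of the mice, no body site and no hair cycle stage, and do not say whether healthy skin came from untreated mice or the papillomas from separate mice.

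Melanocytes make melanin inside organelles called melanosomes and pass these to keratinocytes. In hairy mouse skin most of them sit in the bulb of growing hair follicles, beside the cells that build the hair shaft and its inner root sheath, and pigment is made only while the hair grows. The transcription factor MITF binds a short motif, the M-box, in front of pigment enzyme genes and drives them. Levels are given here as CPM, counts per 1000000 counts after TMM scaling, and the keratin gene Krt71, which is used by the inner root sheath and not by melanocytes, serves as a marker of follicle content.

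The promoters of the 3 melanin enzyme genes are shown because each holds the M-box letters TCATGTGCT within the 250 bases before its start (RefSeq sequences on GRCm38.p6, 250 bases before to 50 after the start, read along the gene's strand). Capitals mark the M-box, which starts 22 bases before the start of Tyr (chr7:87493463-87493762, minus strand), 47 before that of Tyrp1 (chr4:80833963-80834262, plus strand) and 151 before that of Dct (chr14:118052197-118052496, minus strand). In Dct, capitals also mark CACATG, the other-strand reading of the core letters CATGTG, 232 bases before the start.
Tyr: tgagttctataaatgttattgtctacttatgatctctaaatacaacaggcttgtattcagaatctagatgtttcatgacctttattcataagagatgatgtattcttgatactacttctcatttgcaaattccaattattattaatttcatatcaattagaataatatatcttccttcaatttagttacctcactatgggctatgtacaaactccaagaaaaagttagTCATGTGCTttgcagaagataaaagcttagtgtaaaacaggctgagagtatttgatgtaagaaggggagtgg
Tyrp1: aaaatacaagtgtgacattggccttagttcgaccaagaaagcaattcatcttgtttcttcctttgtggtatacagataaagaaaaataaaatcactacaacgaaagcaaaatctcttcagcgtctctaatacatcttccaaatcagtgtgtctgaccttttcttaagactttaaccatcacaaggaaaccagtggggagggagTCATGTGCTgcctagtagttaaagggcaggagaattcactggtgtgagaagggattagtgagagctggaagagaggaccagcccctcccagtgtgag
Dct: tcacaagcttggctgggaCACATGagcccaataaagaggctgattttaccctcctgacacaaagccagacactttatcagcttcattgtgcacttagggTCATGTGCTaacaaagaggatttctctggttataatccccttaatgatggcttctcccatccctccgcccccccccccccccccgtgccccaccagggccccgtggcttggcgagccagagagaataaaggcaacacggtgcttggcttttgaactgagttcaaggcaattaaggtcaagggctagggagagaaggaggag
Promoters were listed for 5 of the 7 genes. On either strand, the M-box letters were in 134 of all 32851 listed promoters (0.408%), and CATGTG, which lies inside the M-box, was in 14.2% of them. Oca2 had CACATG 186 bases before its start and no M-box in the window, and neither the M-box nor CATGTG was in the windows of the 3 listed Mitf starts or of Krt71. A match of letters describes the sequence and is not a measured binding site.

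All 7 genes were well counted in healthy skin, at 30.8% or more of the skin level in papilloma 2, and much lower in papilloma 1 and the tumour, where Tyr, Slc45a2 and Oca2 had 4 counts or fewer. Both papillomas were lower than skin in every gene, but by very different amounts. The genes without Mitf summed to 332 CPM in skin, 7.08 CPM in papilloma 1, 124 CPM in papilloma 2 and 1.38 CPM in the tumour. The sum stood at 2.13% of the skin level in papilloma 1, 37.3% in papilloma 2 and 0.415% in the tumour. In bulk tissue, fewer melanocytes and less pigment gene RNA per melanocyte cannot be told apart.

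**Figure D1:**
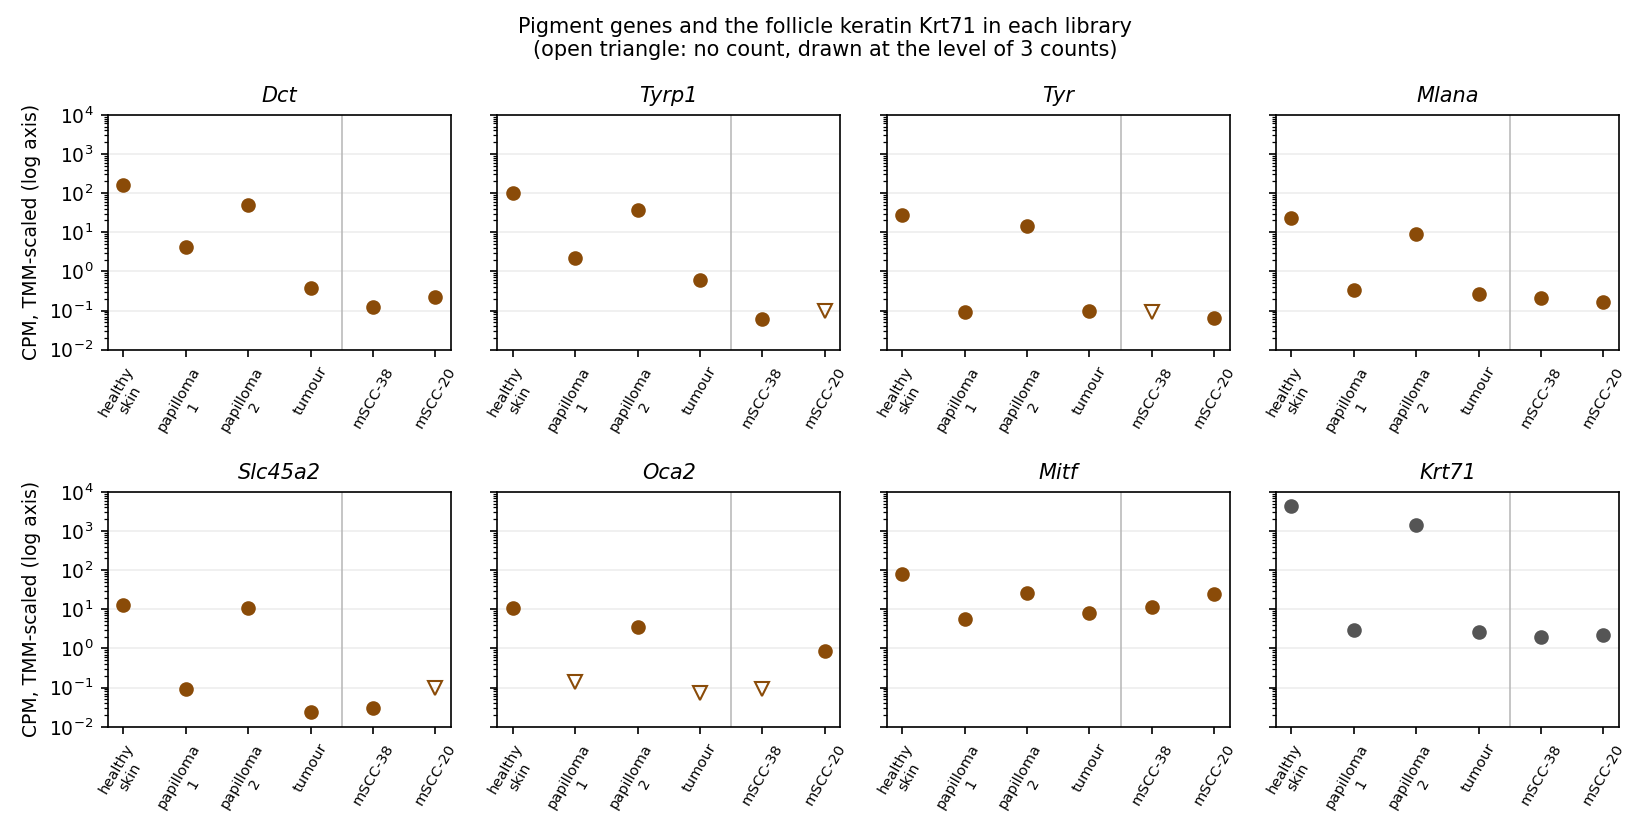
CPM of the 7 pigment genes and of Krt71 in the 6 libraries on a log scale, 1 point per library. Papilloma 2 lies below skin for every gene, whereas papilloma 1 and the tumour lie far lower, and Mitf stays at 5.72 CPM or more everywhere.

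In skin and papilloma 2, Dct and Tyrp1 were the most counted of the 7 genes. Dct, the dopachrome tautomerase that acts late in eumelanin synthesis (mm9, chr14:118412013-118451468), had 157 CPM in skin, 4.31 in papilloma 1, 48.4 in papilloma 2 and 0.380 in the tumour. The cultures had 0.121 CPM (mSCC-38) and 0.227 CPM (mSCC-20). Skin and papilloma 2 were thus high, papilloma 1 was low but clearly counted, with 92 counts, and the tumour and cultures had 16 counts or fewer.

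Tyrp1, the tyrosinase-related enzyme that acts after Dct (mm9, chr4:80480135-80497622), had 101 CPM in skin, 2.25 in papilloma 1, 37.7 in papilloma 2 and 0.617 in the tumour. It had 0.0603 CPM in mSCC-38, from 2 counts, and none in mSCC-20. Tyr, the tyrosinase that starts melanin synthesis (mm9, chr7:94575916-94641921), had 27.1 CPM in skin, 0.0938 in papilloma 1, 14.3 in papilloma 2 and 0.0949 in the tumour. The papilloma 1 and tumour values of Tyr rest on 2 and 4 counts, beside 404 counts in papilloma 2 and 1348 in skin. The order of the 4 biopsies was the same for Dct and Tyrp1, whereas for Tyr papilloma 1 and the tumour could not be told apart.

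Mlana encodes a small melanosome membrane protein that helps PMEL mature (mm9, chr19:29772432-29782796). It had 22.7 CPM in skin, 0.328 in papilloma 1, 8.79 in papilloma 2 and 0.261 in the tumour, and 0.211 and 0.162 CPM in mSCC-38 and mSCC-20. Papilloma 2 and skin stood apart from the other libraries, none of which had more than 11 counts.

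The membrane transporters of the melanosome were the least counted of the 7 genes in skin. Slc45a2, a transporter needed for a normal melanosome pH (mm9, chr15:10930477-10958988), had 13.0 CPM in skin, 0.0938 in papilloma 1, 11.1 in papilloma 2 and 0.0237 in the tumour. Oca2, the melanosomal anion channel gene mutated in pink-eyed dilution mice (mm9, chr7:63495142-63791887), had 10.7 CPM in skin, 0 in papilloma 1, 3.50 in papilloma 2 and 0 in the tumour. With 3 counts as the upper limit of a 0, Oca2 could have been present at up to 0.141 CPM in papilloma 1 and 0.0712 CPM in the tumour. Slc45a2 in papilloma 2 came nearest to its skin level of all 7 genes.

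Mitf, the gene of the lineage regulator (mm9, chr6:97757053-97971352, 3 RefSeq transcripts counted together), was counted in every library. It had 78.4 CPM in skin, 5.72 in papilloma 1, 25.7 in papilloma 2, 8.05 in the tumour, 11.6 in mSCC-38 and 24.5 in mSCC-20. Each library thus held at least 122 Mitf counts, including the cultures, where the other 6 genes summed to 0.422 CPM (mSCC-38) and 1.30 CPM (mSCC-20). Mitf is also transcribed from other promoters in other cell types, such as mast cells and macrophages, and the table does not separate its transcripts. In the cultures, mast cell markers summed to 0.573 CPM (mSCC-38) and 0.227 CPM (mSCC-20). Macrophage markers summed to 15.1 and 5.65 CPM, of which Cd68 gave 12.9 and 3.31 CPM. The source of Mitf RNA in the cultures was not tested. None of the 7 gene models overlapped another gene model.

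Set beside skin, papilloma 2 kept between 30.8% and 85.1% of each gene's level. Dct stood at 30.8% (95% exact interval 29.0 to 32.6), Oca2 at 32.6% (26.0 to 40.5), Mitf at 32.8% (30.3 to 35.6) and Tyrp1 at 37.3% (34.9 to 39.8). Mlana stood at 38.8% (33.7 to 44.6), Tyr at 52.6% (47.0 to 58.8) and Slc45a2 at 85.1% (74.1 to 97.5). The intervals of Tyr and Slc45a2 lay above those of the other genes, and Oca2, Mitf, Tyrp1 and Mlana had intervals that overlapped one another. These intervals, here and throughout, cover counting error only and not differences between animals or biopsies.

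In papilloma 1, the same shares were far smaller. Mitf stood at 7.30% (6.04 to 8.74) of its skin level, Dct at 2.74% (2.21 to 3.37), Tyrp1 at 2.23% (1.64 to 2.96) and Mlana at 1.45% (0.581 to 2.99). Slc45a2 and Tyr, with 2 counts each, stood at 0.719% (0.0869 to 2.61) and 0.346% (0.0418 to 1.25). Oca2 was at least 76.2-fold lower than in skin, with 3 counts taken for its 0. By the size rule used for pairs of single libraries (at least 4-fold on log2(CPM + 0.5), among genes with at least 1 CPM in either library), 7 of 7 genes were lower in papilloma 1 than in skin, against 6.36% of the 14584 genes compared. In papilloma 2 it was 0 of 7, against 3.69% of 14541 genes. The median log2 ratio to skin of the 7 genes, with 0.5 CPM added, was -4.80 in papilloma 1 and -1.41 in papilloma 2. Over all genes compared it was -0.03 and -0.04. Oca2 entered the papilloma 1 median at 0 counts.

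**Figure D2:**
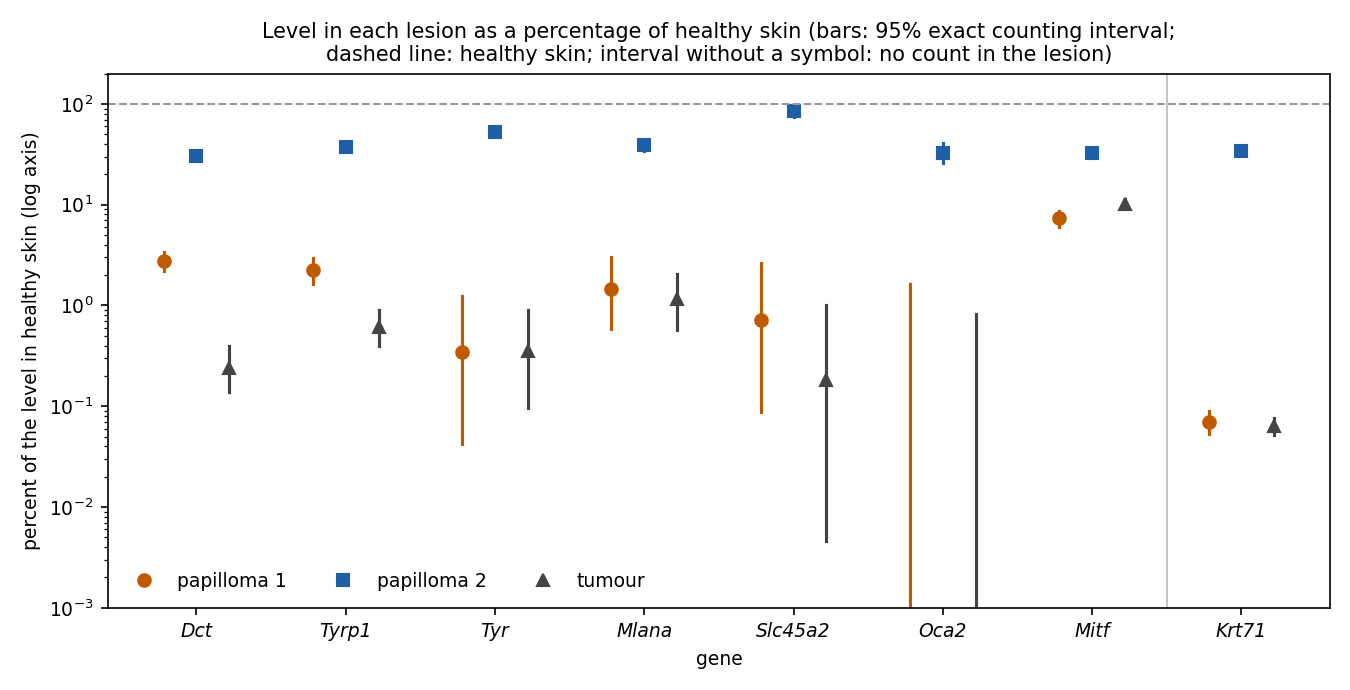
Level of each pigment gene as a percentage of its level in healthy skin, in papilloma 1, papilloma 2 and the tumour, on a log scale with 95% exact intervals, beside the same for Krt71. In papilloma 2, Krt71 at 34.4% falls among the pigment genes, whereas in papilloma 1 and the tumour it falls below every pigment gene that was counted. The intervals of Tyr in papilloma 1 and Slc45a2 in the tumour reach below the Krt71 value.

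Papilloma 2 exceeded papilloma 1 in each of the 7 genes. Dct was 11.2-fold higher (9.08 to 14.0), Tyrp1 16.7-fold (12.5 to 22.9) and Mlana 26.8-fold (12.8 to 67.3). The ratio was 152-fold for Tyr (41.9 to 1261) and 118-fold for Slc45a2 (32.5 to 981), both against 2 counts in papilloma 1, and Oca2 was at least 24.9-fold higher, with 99 counts against 0. Mitf differed the least, at 4.50-fold (3.71 to 5.50). By the size rule, 7 of 7 genes were higher in papilloma 2 than in papilloma 1, against 1.17% of the 13937 genes compared. Their median log2 ratio, with 0.5 CPM added and Oca2 at 0 counts in papilloma 1, was 3.49, beside -0.03 over all genes. Each side is 1 library, so this describes these biopsies and carries no p-value.

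Krt71 had 4239 CPM in skin, 2.95 in papilloma 1, 1457 in papilloma 2 and 2.68 in the tumour. It was 493-fold higher in papilloma 2 than in papilloma 1 (385 to 642), above the intervals of Dct, Tyrp1, Mlana and Mitf. The intervals of Tyr (41.9 to 1261) and Slc45a2 (32.5 to 981) held that ratio, and Oca2 had only a lower bound. Krt71 levels in mSCC-38 and mSCC-20 were 1.93 and 2.27 CPM, close to those in papilloma 1 and the tumour. As a share of skin, Krt71 was at 0.0697% in papilloma 1, 0.0633% in the tumour, 0.0456% in mSCC-38 and 0.0536% in mSCC-20. Cultured cells without follicles thus gave Krt71 values like those of papilloma 1, so a ratio to Krt71 is not exact in libraries at that level.

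Relative to Krt71, the pigment genes of papilloma 2 were close to skin, apart from Tyr and Slc45a2, which were higher. The ratio of each gene to Krt71, papilloma 2 over skin, was 0.89 for Dct (95% exact conditional interval 0.843 to 0.949), 1.53 for Tyr (1.37 to 1.71), 1.08 for Tyrp1 (1.01 to 1.16), 1.13 for Mlana (0.980 to 1.30), 2.47 for Slc45a2 (2.15 to 2.84), 0.95 for Oca2 (0.757 to 1.18) and 0.96 for Mitf (0.881 to 1.04). The interval held 1 for Mlana, Oca2 and Mitf, lay under it for Dct, and lay over it for Tyr, Tyrp1 and Slc45a2. Pigment counts other than Mitf came to 84.9 per 1000 Krt71 counts in papilloma 2 and 78.3 in skin. With the summed hair shaft keratins in place of Krt71, which stood at 24.2% of skin in papilloma 2, the median ratio was 1.54, and with Krt71 it was 1.08. With the hair shaft keratins, all 7 ratios were above 1, from 1.27 (Dct) to 3.51 (Slc45a2), and no interval held 1. Such a ratio is above 1 for any gene that kept more than 24.2% of its skin level. In papilloma 2, 3.69% of 14541 genes were at least 4-fold lower than in skin, so this is not particular to pigment genes. Closeness to skin thus depends on the reference.

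In papilloma 1, the same ratios were far above 1, with Krt71 at a smaller share of its skin level than any pigment gene with a count. They were 39.3 for Dct (28.2 to 55.1), 31.9 for Tyrp1 (21.4 to 47.3), 20.8 for Mlana (8.01 to 45.5), 10.3 for Slc45a2 (1.22 to 39.0) and 105 for Mitf (76.5 to 144). For Tyr the ratio was 4.96 with an interval that held 1 (0.587 to 18.7), and for Oca2, at 0 counts, the interval reached up to 23.9. The median of the 7 ratios was 20.8 with Krt71, 18.7 with the summed inner root sheath keratins and 3.96 with the summed hair shaft keratins. The inner root sheath sum includes Krt71, which gave 63 of its 184 counts in papilloma 1, so it is not a separate reference. Raised ratios to Krt71 were not limited to papilloma 1. Per 1000 Krt71 counts, Mlana had 111 counts in papilloma 1, 97.3 in the tumour, 109 in mSCC-38 and 71.4 in mSCC-20, against 5.34 in skin, each from 11 counts or fewer outside skin. The 6 genes without Mitf summed to 2397 per 1000 Krt71 counts in papilloma 1, 513 in the tumour, 219 in mSCC-38 and 571 in mSCC-20, against 78.3 in skin. Of the 21.2 CPM summed over the hair shaft keratins in papilloma 1, Krt84 alone gave 15.2 CPM.

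The other abundant hair genes were also far lower in papilloma 1 and the tumour than in papilloma 2. Those at 500 CPM or more in skin, Krt71 left out, numbered 9 and stood at a median of 0.0578% of skin in papilloma 1 (0.0271 to 0.329), 24.3% in papilloma 2 (19.6 to 31.8) and 0.0730% in the tumour (0.0249 to 0.290). The 7 pigment genes had medians of 1.45%, 37.3% and 0.350% in these libraries (0.610% in the tumour with Oca2 at its bound). Above the highest of these hair genes were 6 of 7 pigment genes in papilloma 1, 6 in papilloma 2 and 4 in the tumour. In the cultures it was 4 in mSCC-38 and 5 in mSCC-20. Over all genes compared, the median log2 ratio to skin was -0.03 in papilloma 1, -0.04 in papilloma 2 and 0.01 in the tumour. Passing these levels thus does not set the pigment genes apart from genes at large. Krt71, left out here, stood at 34.4% in papilloma 2, above Dct, Oca2 and Mitf. The intervals of Oca2 and Mitf in papilloma 2, and that of Tyr in the tumour, reached into the range of the hair genes. In papilloma 1, the intervals of Tyr and Slc45a2 reached into the range of the hair genes, so at this depth they were not separable from it, whereas those of Dct, Tyrp1, Mlana and Mitf lay above it. The 500 CPM rule left out hair genes with lower skin levels. Of these, Krt84 stood at 28.2% of skin in papilloma 1 and 43.1% in papilloma 2, whereas Krt33b stood at 0.0348% and 30.5%. The counts above thus hold for these 9 abundant genes and not for all hair genes.

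Tests of papilloma against skin and of tumour against papilloma used the quasi-likelihood method of edgeR on the 4 biopsies, in which the gap between the papillomas is the only replicate spread. The 2 comparisons share the papilloma libraries. For papilloma against skin, 0 of 7 genes were called at an adjusted p under 0.05, where 14.3% of the 16302 genes tested were called lower and 12.0% higher. Dct averaged 26.3 ± 31.2 CPM in papilloma and 157 CPM in skin (SD, n = 2 and 1), a log2 fold change of -2.57 ± 1.18 (SE, adjusted p = 0.161 in edgeR). Mitf averaged 15.7 ± 14.2 CPM in papilloma and 78.4 CPM in skin, with -2.31 ± 0.78 (adjusted p = 0.0859 in edgeR). The other 5 had log2 fold changes of -2.57 (Oca2) to -1.20 (Slc45a2), with adjusted p from 0.229 to 0.608 in edgeR, and Krt71 had -2.54 ± 2.41 (adjusted p = 0.454). The median of the 7 was -2.31, beside -0.06 over all genes tested. At an unadjusted p under 0.05, Mitf alone was lower, against 23.7% of all genes, and 2 genes (Dct and Mitf) without the filter on low counts, against 21.2%. DESeq2 called 0 of 7, against 11.2% of its genes called lower, and 0 of 7 at an unadjusted p under 0.05, against 15.7%. Without the filter on low counts edgeR called Mitf (adjusted p = 0.0421), where 14.3% of genes were called lower.

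For tumour against papilloma, edgeR again called 0 of 7, where 10.6% of the genes tested were called lower and 12.1% higher. Dct, at 0.380 CPM in the tumour and 26.3 ± 31.2 CPM in papilloma (SD, n = 1 and 2), had a log2 fold change of -6.11 ± 1.84 (adjusted p = 0.0754 in edgeR). Tyrp1, at 0.617 CPM in the tumour and 19.97 ± 25.1 CPM in papilloma, had -5.02 ± 1.91 (adjusted p = 0.126 in edgeR). Mitf, at 8.05 CPM in the tumour and 15.7 ± 14.2 CPM in papilloma, had -0.97 ± 0.86 (adjusted p = 0.447 in edgeR). Tyr, Mlana, Slc45a2 and Oca2 had adjusted p from 0.161 to 0.194. The median log2 fold change was -6.11 (-5.02 with Oca2 at its bound), beside -0.01 over all genes tested. Dct and Tyrp1 were lower at an unadjusted p under 0.05, against 18.6% of all genes. At the same unadjusted threshold 4 of 7 were lower in DESeq2, against 16.9%, and 6 of 7 in edgeR without the filter, against 17.1%. DESeq2 called Dct lower (adjusted p = 0.0157), against 12.3% of its genes, and so did edgeR without the filter on low counts (adjusted p = 0.0311), against 10.8%.

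The tumour lay below papilloma 2 in all 7 genes, but not below papilloma 1 in all of them. Against papilloma 2, Dct was 127-fold lower in the tumour (78.2 to 224), Tyrp1 61.1-fold (41.4 to 93.9) and Mlana 33.7-fold (18.5 to 68.3), and Oca2 was at least 49.1-fold lower. Against papilloma 1, Dct in the tumour was 11.4-fold lower (6.63 to 20.7) and Tyrp1 3.65-fold lower (2.22 to 6.12), whereas Mitf was 1.41-fold higher (1.14 to 1.74). For Mlana the ratio of tumour to papilloma 1 was 0.80 with an interval of 0.282 to 2.42, and Tyr and Slc45a2 had at most 4 counts on each side. Without papilloma 2, the median log2 ratio of tumour to papilloma over the 7 genes was -0.12, and with both papillomas it was -3.54.

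Against skin, 7 of 7 genes were lower in the tumour by the size rule, against 9.97% of the 14728 genes compared. The median log2 ratio, with 0.5 CPM added and Oca2 at 0 counts in the tumour, was -4.93, beside 0.01 over all genes. Mitf kept 10.3% of its skin level in the tumour (9.16 to 11.5), and the other 5 counted genes between 0.182% (Slc45a2, 1 count) and 1.15% (Mlana, 11 counts). Oca2 was at least 151-fold lower.

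Between the cultures, Mitf is the single pigment gene with at least 1 CPM. It had 11.6 CPM in mSCC-38 and 24.5 CPM in mSCC-20, a ratio of 0.47 (0.418 to 0.536), and did not pass the size rule, so 0 of the 1 gene that the rule covers passed it, and by this rule 7.89% of 12297 genes were higher and 4.38% lower in mSCC-38. Oca2 had 0 counts in mSCC-38 and 26 counts in mSCC-20, at least 9.33-fold lower in mSCC-38, at a level of 0.844 CPM in mSCC-20 that is above the 0.0974 CPM a count of 0 would allow there. The other 5 genes had 7 counts or fewer in each culture. Sox10, which melanocytes need, and Gpr143 were at 0 in both cultures, and Slc24a5 had 0 counts in mSCC-38 and 1 in mSCC-20. Not all melanocyte genes were this low. Trpm1 had 3 counts in mSCC-38 and 22 in mSCC-20, and Pmel, whose model overlaps Dgka, had 29 and 52.

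Levels of different genes can be compared only per length, for which the RPKM deposited by the authors (counts per 1000 bases of gene model and 1000000 counts) was used. In skin, Dct was highest at 84.05 RPKM, followed by Mlana at 59.85, Tyrp1 at 44.9, Mitf at 18.3, Tyr at 9.89, Slc45a2 at 5.28 and Oca2 at 4.17. Papilloma 2 had the same order at lower RPKM levels, with 20.4 for Dct, 18.3 for Mlana, 13.2 for Tyrp1, 4.73 for Mitf, 4.11 for Tyr, 3.54 for Slc45a2 and 1.07 for Oca2. In papilloma 1, Dct led at 1.63 RPKM, with Mitf next at 0.95 RPKM, then Tyrp1 at 0.71 and Mlana at 0.61. In the tumour Mitf came first at 1.54 RPKM, ahead of Mlana at 0.56 RPKM. Mitf made up 8.07% of the summed RPKM of the 7 genes in skin, 24.1% in papilloma 1, 7.24% in papilloma 2, 60.9% in the tumour, 80.5% in mSCC-38 and 86.5% in mSCC-20.

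**Figure D3:**
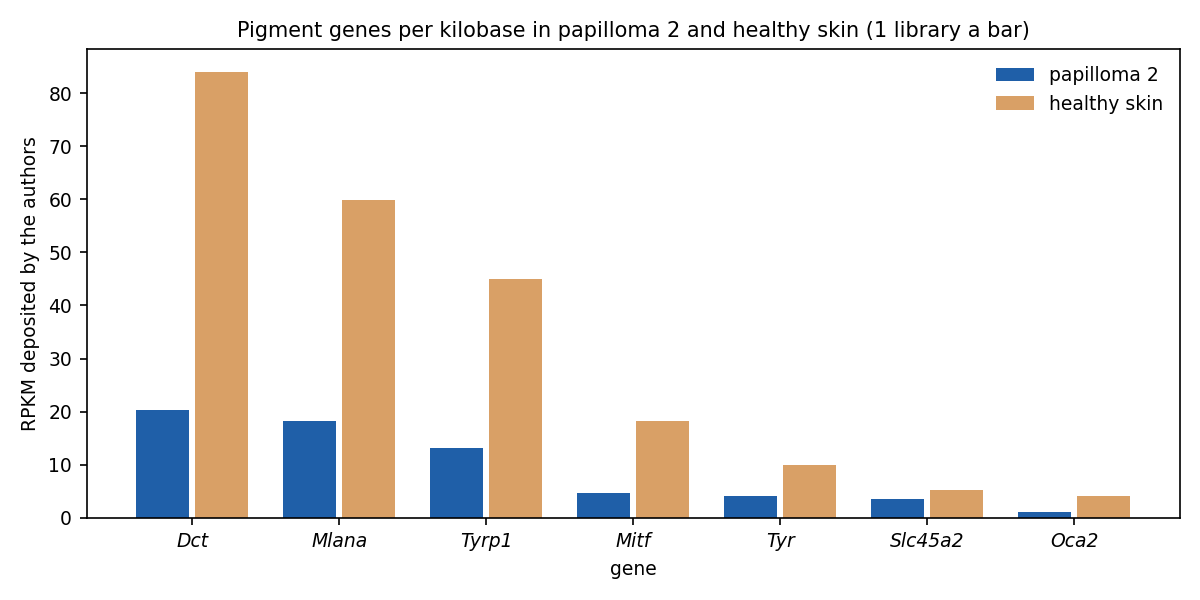
Length-scaled levels (RPKM as deposited by the authors) of the 7 pigment genes in papilloma 2 and healthy skin, 1 library a bar. Both libraries have Dct, Mlana and Tyrp1 first and Oca2 last.

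Other genes of the lineage were read from lists grouped by known function. Of 21 other pigment and melanosome genes, 4 rose and 1 fell in papilloma against skin in edgeR, with a median log2 fold change of -0.15, where 12.0% of all genes tested rose and 14.3% fell. Those that rose were Rab38, Tpcn2, Atp7a and Slc7a11, at log2 fold changes of 1.27, 1.38, 1.12 and 2.46, and Hps3 fell by 0.64 on the log2 scale. These names were picked after their values were seen, and the genes also serve vesicles, copper or cystine transport in other cells. In the tumour against papilloma, 2 rose and 3 fell, where 12.1% of all genes rose and 10.6% fell. Slc24a5, a melanosome cation exchanger, had 19.9 CPM in skin, 0.0938 in papilloma 1, 9.75 in papilloma 2 and 0.0475 in the tumour, and Trpm1, the melastatin channel, had 49.2, 1.08, 18.9 and 0.427 CPM in the same libraries. Pmel, which forms the fibrils of the melanosome, had 118, 2.16, 38.5 and 0.641 CPM, but its model overlaps Dgka on the opposite strand, and their reads may not be separated.

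Of 14 lineage regulators and receptors, 7 fell and 0 rose in papilloma against skin in edgeR, with a median log2 fold change of -1.33, beside the 14.3% of all genes that fell and 12.0% that rose. Sox10, the neural crest factor that activates Mitf, had 9.72 CPM in skin, 1.17 in papilloma 1, 2.15 in papilloma 2 and 0.783 in the tumour, and its log2 fold change in papilloma was -2.53 ± 0.44 (adjusted p = 0.0210 in edgeR). Ednrb, the endothelin receptor of melanocyte precursors, had 59.0, 17.5, 24.6 and 20.8 CPM in these libraries and fell by 1.48 ± 0.23 on the log2 scale in papilloma (adjusted p = 0.0169). Sox10 stood at 12.1% of its skin level in papilloma 1 and 22.2% in papilloma 2, and Ednrb at 29.7% and 41.7%. Kit, the receptor that melanocytes need to survive, had 39.1, 10.2, 21.0 and 8.83 CPM (log2 fold change -1.32, adjusted p = 0.0758 in edgeR). Sox9, Tfap2b, Zeb2, Bcl2 and Tfeb also fell. In the tumour against papilloma 3 of the 14 rose (Sox9, Zeb2 and Bcl2) and 1 fell (Tfap2b), beside 12.1% and 10.6% of all genes.

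Other cells in skin express some of these genes, and their markers moved as well. Schwann cells share Sox10 and Ednrb, and 4 of 9 of their markers fell and 1 rose in papilloma against skin, where 14.3% of all genes fell and 12.0% rose, the shares that also stand beside the next 2 lists. Their summed level was 279 CPM in papilloma 1 and 249 in papilloma 2, against 437 CPM in skin, and none was at 0 in a biopsy. Mal, the marker that rose, gave 123 and 56.2 CPM of these sums in the papillomas, against 13.3 CPM in skin. Mast cells share Kit and Mitf, and 2 of 8 of their markers rose and 0 fell, with summed levels of 93.0 CPM in papilloma 1 and 91.1 in papilloma 2, against 78.4 CPM in skin. Macrophages share Mitf, and 1 of 8 rose and 3 fell, with summed levels of 289 and 361 CPM, against 479 CPM in skin. No mast cell or macrophage marker was at 0 in a biopsy. Keratinocyte markers summed to 56520 and 44960 CPM in papilloma 1 and papilloma 2, against 12391 CPM in skin. The part of these cells in the Mitf, Sox10, Ednrb and Kit levels was not tested.

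**Figure D4:**
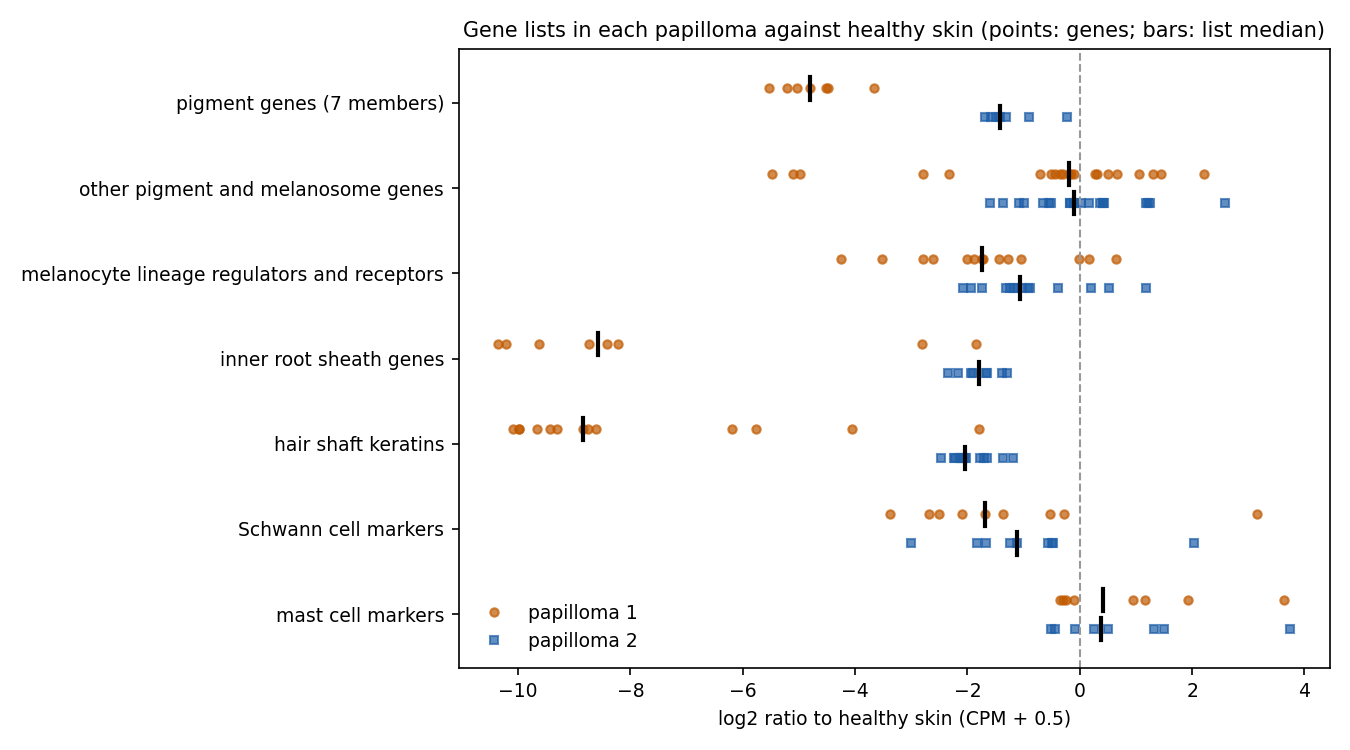
Log2 ratio to healthy skin, with 0.5 CPM added, for each gene of 7 lists in papilloma 1 and papilloma 2, with the list median as a bar. Pigment, inner root sheath and hair shaft genes separate the papillomas. Within each other list, the medians of papilloma 1 and papilloma 2 lie within 1 log2 unit of each other.

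By their medians, the follicle lists separated the papillomas in the same direction as the pigment genes. The inner root sheath genes had a median log2 ratio to skin of -8.58 in papilloma 1 and -1.79 in papilloma 2, and the hair shaft keratins -8.85 and -2.04. The hair matrix regulators, transcription factors and signals of the growing bulb, had -4.16 and -1.75, beside -4.80 and -1.41 for the pigment genes. With 0.5 CPM added, genes low in skin cannot fall as far as abundant keratins. Oca2, at 0 counts in papilloma 1, read -4.49, so these medians do not measure likeness between lists. Among the matrix regulators, Foxe1 stood at 76.3% of skin in papilloma 1 and 60.6% in papilloma 2. Foxn1 stood at 43.4% and 47.9%, whereas Hoxc13 stood at 2.05% and 27.3%. In edgeR 1 of 8 inner root sheath genes (Gata3), 1 of 13 hair shaft keratins (Krt84) and 3 of 8 matrix regulators (Dlx3, Foxn1 and Lhx2) fell in papilloma against skin, and none rose. With 14.3% of all genes called lower, the first 2 counts are near or under that share.

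Genes were also ranked by how closely their levels over the 6 libraries followed the average of the 6 pigment genes other than Mitf, as the root mean square distance in log2(CPM + 0.5) after centring each gene, among 13976 genes. The nearest were Trpm1 (0.237), Slc24a5 (0.252), Krtap5-5 (0.256), Ptgds (0.279), Gm10024 (0.325), Pmel (0.354), Csdc2 (0.356), Pla2g2e (0.367), Krtap31-1 (0.382) and Shh (0.389). The pigment genes themselves lay between 0.278 (Tyr) and 0.976 (Oca2) from their average, and Mitf lay at 1.61. Krt71 ranked 3957 at a distance of 2.26, with wider gaps between libraries than the pigment genes. Genes were centred but not scaled, and Krt71 had 4239 CPM in skin, where Dct, the most counted pigment gene, had 157 CPM. With 0.5 CPM added, an abundant gene can show wider gaps, so these ranks depend on abundance as well as on pattern. The 6 libraries differ in tissue, growth and depth, so likeness over them describes this set and carries no test.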

How the data were processed

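Per the labels' protocols, total RNA was taken up in Qiazol and purified on columns, and a small RNA library kit for SOLiD was used. Per the file headers, the deposited table by the authors gives raw counts and RPKM per gene model and library. The build was mm9 per the submitters' processing notes, whereas aligner, counter and strand setting were not given in the sources used here. Total counts ranged from 25140489 (papilloma 1) to 42992597 (tumour), and RNA integrity numbers from 7.5 (skin) to 9.6 (mSCC-38). The authors' RPKM, which imply totals within 1% of the summed counts, served only to compare genes within a library.

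The 4 biopsies were fitted together in edgeR 4.0.16 (limma 3.58.1, R 4.3.3), group only, with TMM factors over 6 libraries (0.848 in papilloma 1 to 1.20 in skin), the default filter by group and Benjamini-Hochberg adjustment over 16302 genes. With 1 residual degree of freedom, from the papillomas, skin and tumour are taken to vary as the papillomas do, and p-values reflect the spread between these libraries alone, part of which may be technical. On simulated data the test made more false calls than its threshold allows. The SE was worked back from the fold change and the F statistic. Ratios carry 95% intervals by the exact Clopper-Pearson method. DESeq2 1.42.0, other scalings, added CPM, no filter and each papilloma alone were the alternatives.

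The 7 genes and all lists were chosen with earlier results of these data known. Named genes were all 7 members with Krt71, up to 5 genes per list by mean CPM over the biopsies, and the 10 most alike genes. Others were named after their values were seen. In the lists, 2 genes (Krt72 and Ncmap) were not matched and not analysed here. RefSeq promoters come from another build than the counts.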

Additional observations from a re-analysis of the deposited data

How the results depend on the processing

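The 7 genes were called by other settings in 3 cases. Without the filter on low counts, edgeR called 1 gene in papilloma against skin (Mitf) and 1 in tumour against papilloma (Dct), and DESeq2 called 1 (Dct) in tumour against papilloma, where edgeR with its filter called 0. Leaving out 1 papilloma moved the median log2 ratio of papilloma to skin, -2.28 with both, between -4.80 (without papilloma 2) and -1.41 (without papilloma 1), and that of tumour to papilloma, -3.54 with both, between -4.47 (without papilloma 1) and -0.12 (without papilloma 2). Set against summed keratins, the median ratio relative to the follicle in papilloma 1, 20.8 with Krt71, was 3.96 with the hair shaft keratins. In papilloma 2, 1.08 with Krt71, it was 1.54 with the hair shaft keratins and 1.18 with those of the inner root sheath, a sum that includes Krt71. The cause of these changes was not tested. Without papilloma 2, the log2 ratio of tumour to papilloma turned direction for Mitf, from -0.93 to 0.46, both short of 4-fold. That of Tyr went from -3.69 to 0.003. Scaling by total counts moved the median log2 fold change of all genes tested to -0.48 in papilloma against skin and 0.12 in tumour against papilloma, and the medians of the 7 genes stood at -2.68 and -6.04 there. With 1 CPM added, 6 of the 7 genes were past 4-fold between papilloma 2 and papilloma 1. No paired analysis was possible because only papilloma carries replicate numbers. Depth limits Tyr, Slc45a2 and Oca2 in papilloma 1 and the tumour, where each has 4 counts or fewer.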

Other observations

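Signals that reach melanocytes were not part of the comparisons above. Kitl, the ligand of Kit that keratinocytes make, had 72.8 CPM in skin, 37.1 in papilloma 1, 50.01 in papilloma 2 and 156 in the tumour, and it rose in the tumour against papilloma (log2 fold change 1.84 ± 0.22, adjusted p = 0.00865 in edgeR). The cultures had 129 CPM of Kitl in mSCC-38 and 14.4 CPM in mSCC-20. The library with the most Kitl was thus among those with the fewest pigment gene counts. Foxn1, a factor of the hair matrix, fell by 1.13 on the log2 scale in papilloma against skin (adjusted p = 0.0129 in edgeR) and by 2.26 in the tumour against papilloma (adjusted p = 0.00361). Of 9 genes tested on the list of such signals, 1 rose and 1 fell in each comparison. These were Adam10 and Foxn1 in papilloma against skin, and Kitl and Foxn1 in tumour against papilloma. Foxn1 also stands among the hair matrix regulators and is not itself a signal. The counts are near the shares of all genes, 12.0% and 14.3% in papilloma against skin and 12.1% and 10.6% in tumour against papilloma.

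The agouti gene, whose product turns follicle melanocytes to yellow pigment, had 8 counts in skin, 6 in papilloma 1, 55 in papilloma 2 and 3 in the tumour, or 0.161, 0.281, 1.94 and 0.0712 CPM. Corin, a dermal papilla protease that limits agouti, had 11.2, 0.0469, 2.22 and 0 CPM in the same libraries. Mc1r, the melanocyte receptor that agouti blocks, had 7.52 CPM in skin, 0.656 in papilloma 1, 5.62 in papilloma 2 and 0.0712 in the tumour. These genes were picked after their values were seen, and neither agouti, Corin nor Mc1r was called in edgeR.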
